A study of Homo sapiens with 22 samples.

Results

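The 9 genes described here belong to the epithelial-mesenchymal transition (EMT) and were followed through the RNA-seq libraries of human renal cancer cells. They were the transcription factor genes SNAI1, SNAI2, TWIST1, TWIST2, ZEB1, ZEB2 and PRRX1, the intermediate filament gene VIM and the fibronectin gene FN1. They were taken by symbol, as 9 of the 25343 gene rows in each deposited table. Of the 9, 6 had reads in all 22 libraries, and TWIST1, TWIST2 and PRRX1 did not pass the filter on low counts.

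The libraries came from 7 groups of established lines, all grown in RPMI with 10% FBS to 80% confluence and read as poly(A) RNA. In 4 groups 786-M1A cells carried CRISPR interference (CRISPRi), in which a guide brings a repressor to DNA: guide iMAE-1.1 (4 libraries), guide iMAE-1.2 (4), guide iMAE-126 (2) and a non-targeting guide called SC (6). The labels name the guides but not their target sites. The other groups were the lines OS-LM1 (2 libraries), 786-M1A (2) and 786-O (2) with no CRISPRi in their labels. As background, 786-M1A is a metastatic derivative of 786-O and OS-LM1 derives from another renal cancer line, so a contrast with OS-LM1 compares cells of different patients. Nothing in the labels says whether replicates were separate cultures, so p-values measure only the spread between these libraries, which may be technical.

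EMT is the shift by which epithelial cells loosen their junctions and gain the traits of motile mesenchymal cells. The zinc-finger repressors of the SNAI and ZEB families silence E-cadherin (CDH1) and other junction genes by binding E-box sequences, while the bHLH factors TWIST1 and TWIST2 and the homeobox factor PRRX1 drive mesenchymal programmes in other settings. Vimentin forms the intermediate filaments of mesenchymal cells, and fibronectin is a secreted matrix protein that cells bind through integrins. Clear cell renal cancers arise from tubule epithelium and often carry vimentin beside keratins.

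The 250 bases upstream of the annotated start are shown for FN1, ZEB2 and VIM, because FN1 and ZEB2, like SNAI2, were called in 3 of the 7 comparisons below, more than the other genes, and VIM was the most abundant of the 9. They run 5′ to 3′ on the gene's strand from RefSeq on GRCh38.p14. This is not the hg19 build named in the submitters' processing notes, and no coordinate was carried between them. FN1 at chr2:215436069-215436318 on the minus strand has 76.4% G or C, ZEB2 at chr2:144520120-144520369 on the minus strand has 48.0%, and VIM at chr10:17227991-17228240 on the plus strand has 46.0%, against a median of 58% over 35116 promoter windows. Capitals mark the only match found.
FN1: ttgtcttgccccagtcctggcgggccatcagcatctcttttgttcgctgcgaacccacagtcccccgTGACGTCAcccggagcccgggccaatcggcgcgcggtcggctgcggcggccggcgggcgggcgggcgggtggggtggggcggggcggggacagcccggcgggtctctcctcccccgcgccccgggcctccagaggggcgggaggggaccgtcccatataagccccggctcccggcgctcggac
ZEB2: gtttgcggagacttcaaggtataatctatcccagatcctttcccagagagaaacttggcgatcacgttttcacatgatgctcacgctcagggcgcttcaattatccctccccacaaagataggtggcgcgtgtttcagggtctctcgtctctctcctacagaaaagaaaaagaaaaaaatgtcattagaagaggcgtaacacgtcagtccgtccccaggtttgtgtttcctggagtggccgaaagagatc
VIM: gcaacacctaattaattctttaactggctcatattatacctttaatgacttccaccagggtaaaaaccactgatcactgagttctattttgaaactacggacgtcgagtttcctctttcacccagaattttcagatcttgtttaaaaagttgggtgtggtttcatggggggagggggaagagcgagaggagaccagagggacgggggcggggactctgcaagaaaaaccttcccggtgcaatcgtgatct

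The motifs searched on both strands were CAGGTG (reverse complement CACCTG), the E-box bound by SNAI and ZEB factors, the cyclic AMP response element TGACGTCA and the AP-1 element TGANTCA, and they do not overlap in these windows. They occur in 17.5%, 1.65% and 6.57% of all windows. FN1 holds TGACGTCA with its first base 183 bases before the start, and no other match was found in the 3 windows. The table of promoters held windows for 6 of the 9 genes. ZEB1 has 7 windows there, for its several starts, and 2 of these hold the E-box CAGGTG or its reverse complement.

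The bHLH and homeobox factors were at or under the limit of detection. TWIST1 and TWIST2 had 0 counts in each of the 22 libraries, which allows up to 0.0629 to 0.322 CPM (counts per 1e6 counts) per library, taking 3 counts as the limit, and up to 0.00598 CPM over all libraries together. These limits cover counting error only. PRRX1 had 3 counts in SC replicate 1 and 0 elsewhere. CPM here is taken from the expected counts after TMM scaling over all libraries and is used between libraries, whereas TPM, which also divides by transcript length, is used between genes.

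The SNAI and ZEB genes were present in every library at moderate levels. SNAI2 lay at 29.8 to 67.9 TPM, SNAI1 at 17.6 to 46.5, ZEB1 at 7.67 to 15.1 and ZEB2 at 5.17 to 13.7. VIM was among the most abundant transcripts, at 4592 to 8350 TPM, which placed it from rank 3 to rank 12 of all genes and gave it 0.441% to 0.756% of the counts. FN1 lay at 207 to 1043 TPM and ranked from 132 to 677. CDH1, the classical target of the repressors, averaged 3.83 TPM in OS-LM1 and less than 1 TPM in every other group. FN1 varied most, with a ratio of 4.76 between its highest and lowest library in CPM, against 1.84 for VIM, 1.91 for ZEB1, 2.07 for ZEB2, 2.27 for SNAI1 and 2.42 for SNAI2. Without OS-LM1 replicate 2, the lowest library, the FN1 ratio was 3.02.

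**Figure D1:**
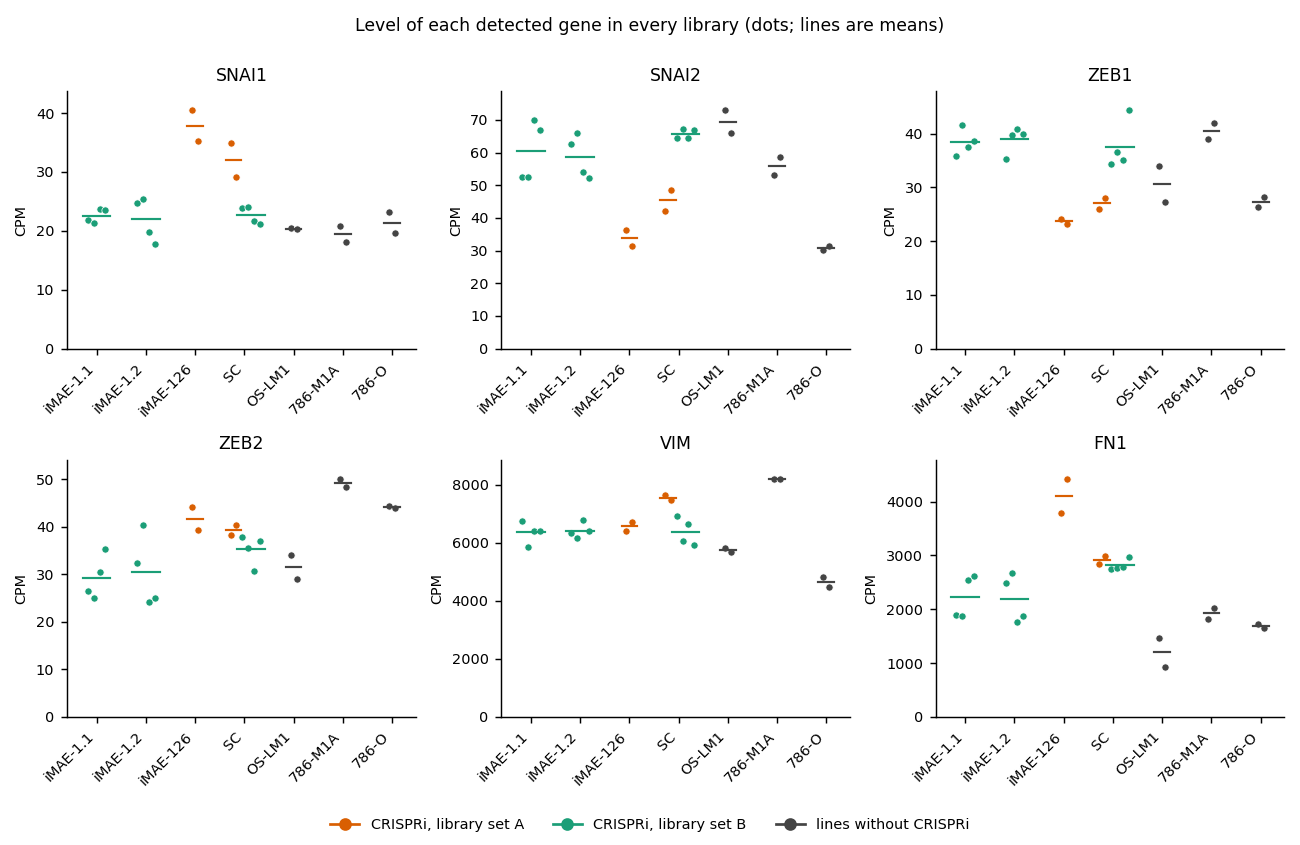
CPM of the 6 detected genes in each library (dots) by group, with group means as lines and the CRISPRi libraries coloured by library set. VIM in 786-M1A (8191 and 8211 CPM) lies above every other library, and FN1 in iMAE-126 (3791 and 4425 CPM) lies above every other library.

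The first question was how 786-M1A differs from 786-O. SNAI2, ZEB1 and VIM rose in 786-M1A, and the other detected genes did not pass the test. Of the 6 genes tested 3 were called, all higher, where 31.0% of all 16354 genes were called in this comparison. That share rests on the libraries in the fit. It was 13.5% to 15.2% without any single library of the 786-M1A or 786-O pairs, 52.4% and 52.8% without OS-LM1 replicate 1 or 2, and 56.4% with these 2 lines alone. SNAI2, a repressor that marks mesenchymal and migratory cells, had 53.2 and 58.7 CPM in 786-M1A, against 30.2 and 31.5 CPM in 786-O. The groups did not overlap, and the difference was 0.86 ± 0.11 in log2 (SE; edgeR quasi-likelihood test, adjusted p = 0.000665). In bulk RNA, as here, fewer cells with a transcript and less of it per cell cannot be told apart. VIM had 8211 and 8191 CPM in 786-M1A, against 4822 and 4465 CPM in 786-O, again without overlap, and its log2 fold change was 0.82 ± 0.09 (edgeR adjusted p = 0.000359). Its antisense neighbour VIM-AS1 stood at 5.79 and 6.40 CPM in the 786-M1A libraries, against 2.83 and 3.99 CPM in 786-O. The preparation was strand-specific, but no source used here gives the strand setting of the counting. Whether reads of the pair were kept apart is therefore not known.

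ZEB1, the repressor best known for opposing the microRNA-200 family, had 38.9 and 42.0 CPM in 786-M1A, against 26.4 and 28.3 CPM in 786-O. The libraries did not overlap and the log2 fold change was 0.57 ± 0.13 (edgeR adjusted p = 0.0115). Leaving out any single library of either line ended this call. The edgeR adjusted p was 0.0592 and 0.0981 when 786-M1A replicates 1 and 2 were dropped in turn, and 0.115 and 0.0783 when those of 786-O were. Its partner ZEB2 had 50.2 and 48.3 CPM in 786-M1A, against 44.4 and 44.1 CPM in 786-O, a log2 difference of 0.15 (edgeR adjusted p = 0.333). SNAI1, which acts early in EMT, had 20.8 and 18.1 CPM in 786-M1A, against 23.2 and 19.7 CPM in 786-O, ranges that overlap (log2 fold change −0.14, edgeR adjusted p = 0.442). FN1 had 1827 and 2019 CPM in 786-M1A, against 1722 and 1658 CPM in 786-O, and did not pass the test (0.19 ± 0.20, edgeR adjusted p = 0.510). In the fit of these 2 lines alone, where the spread of OS-LM1 does not enter, the FN1 value of 0.18 passed (edgeR adjusted p = 0.00172), as it did without OS-LM1 replicate 1 (0.19, 0.00171) or 2 (0.19, 0.00144).

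Against 786-M1A, OS-LM1 had lower ZEB1, ZEB2, VIM and FN1. Here 4 of the 6 tested genes were called, all lower, where 68.7% of all genes were called. ZEB2 had 34.1 and 28.9 CPM in OS-LM1, against 50.2 and 48.3 CPM in 786-M1A, and fell by 0.72 on the log2 scale (SE 0.12; edgeR adjusted p = 0.000697). VIM had 5812 and 5693 CPM in OS-LM1, below the 8211 and 8191 CPM of 786-M1A, and fell by 0.59 (SE 0.09; edgeR adjusted p = 0.000548). FN1 had 1466 and 929 CPM in OS-LM1, against 1827 and 2019 CPM in 786-M1A, and fell by 0.76 (SE 0.20; edgeR adjusted p = 0.00885). Both OS-LM1 libraries lay below both 786-M1A libraries, and they differed from each other more than the 786-M1A pair did. ZEB1 had 33.9 and 27.3 CPM in OS-LM1, against 38.9 and 42.0 CPM in 786-M1A, and fell by 0.48 (SE 0.13; edgeR adjusted p = 0.0110). Without 786-M1A replicate 2 the calls of ZEB1 (edgeR adjusted p = 0.0720) and FN1 (0.0507) were lost.

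SNAI2 and SNAI1 did not pass between OS-LM1 and 786-M1A. SNAI2 had 72.9 and 66.1 CPM in OS-LM1, against 53.2 and 58.7 CPM in 786-M1A (log2 fold change 0.23, edgeR adjusted p = 0.0813). That value passed at a minimum count of 50 (edgeR adjusted p = 0.0213) and without OS-LM1 replicate 2 (0.00153). SNAI1 had 20.4 CPM in both OS-LM1 libraries, between the 18.1 and 20.8 CPM of 786-M1A, with a log2 fold change of −0.02 (edgeR adjusted p = 0.923).

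Against 786-O, OS-LM1 had higher SNAI2 and lower ZEB2 and FN1, so 3 of the 6 tested genes were called where 63.6% of all genes were. SNAI2 rose by 1.09 ± 0.11 on the log2 scale (edgeR adjusted p = 6.51e-05), with both OS-LM1 libraries far above the 30.2 and 31.5 CPM of 786-O. ZEB2 fell by 0.57 (SE 0.12; edgeR adjusted p = 0.00291) and FN1 by 0.58 (SE 0.20; edgeR adjusted p = 0.0322). The FN1 call was lost without 786-M1A replicate 1 (edgeR adjusted p = 0.0519), without 786-O replicate 1 (0.131) or 2 (0.0945), and with these 2 lines fitted alone (0.0557). VIM stood between, 0.23 ± 0.09 above 786-O (edgeR adjusted p = 0.0566), and passed with DESeq2 (0.0106), with RLE size factors (edgeR adjusted p = 0.0272), at a minimum count of 50 (0.0137) and without OS-LM1 replicate 1 (0.00386) or 2 (0.000133). ZEB1 had a log2 fold change of 0.09 (edgeR adjusted p = 0.573), and passed only without OS-LM1 replicate 2 among the settings run (0.25, edgeR adjusted p = 0.0269). The log2 fold change of SNAI1 was −0.15 (edgeR adjusted p = 0.326). The comparisons among these lines share libraries.

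**Figure D2:**
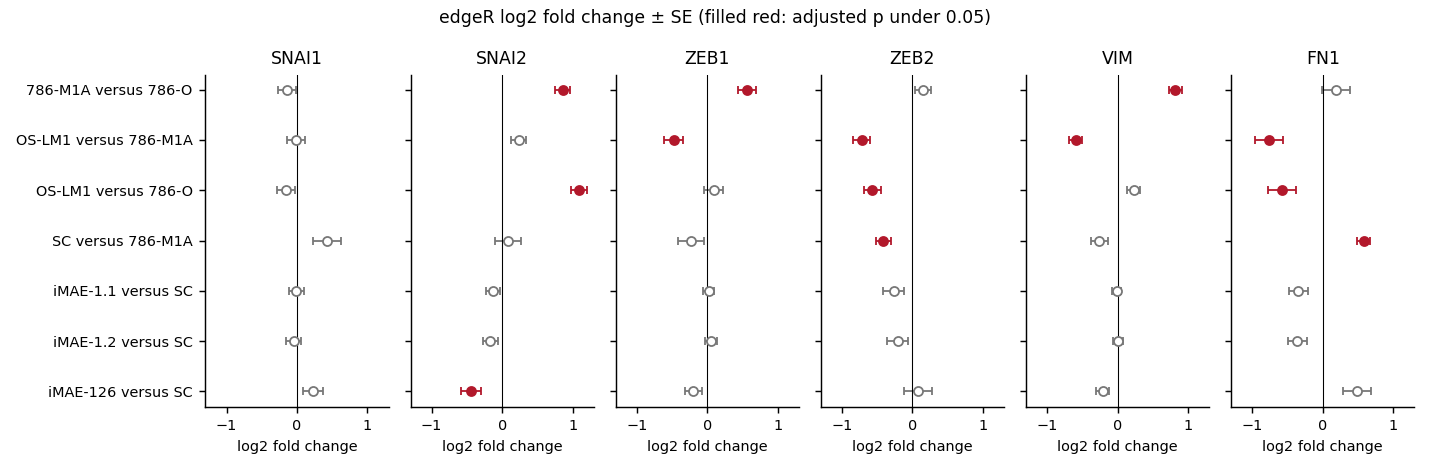
Log2 fold change with its SE (horizontal bars) for the 6 detected genes in the 7 comparisons, filled red where the edgeR adjusted p was under 0.05. SNAI1 is open in all 7 comparisons, SNAI2 is red against 786-O in both lines and in iMAE-126, and FN1 is red below 0 in both OS-LM1 comparisons and above 0 in SC versus 786-M1A.

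By the mean length of the genes that their counts came from, the CRISPRi libraries formed 2 sets, for which the labels have no name. It was 3528 to 3716 bases in set A (iMAE-126 and SC replicates 1 and 2), 3264 to 3395 bases in set B (iMAE-1.1, iMAE-1.2 and SC replicates 3 to 6), and 3929 and 3982 bases in 786-M1A. Within SC the sets, which were found from these counts, did not overlap for 5 of the 6 genes. The share of all genes that separate in this way was not computed, so the separation cannot be called particular to these genes. SNAI1 had 35.0 and 29.2 CPM in set A and 21.1 to 24.1 CPM in set B, SNAI2 had 42.2 and 48.6 against 64.4 to 67.1 CPM, and ZEB1 had 25.9 and 28.1 against 34.4 to 44.3 CPM. ZEB2 had 38.4 and 40.4 CPM in set A and 30.8 to 37.9 CPM in set B, and VIM had 7643 and 7461 against 5917 to 6935 CPM. FN1 was the exception, with 2842 and 2993 CPM in set A within reach of the 2755 to 2964 CPM of set B. Each guide is compared with the SC libraries of its own set, a choice that rests on the gene lengths and not on these genes.

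Against 786-M1A, the SC cells had higher FN1 and lower ZEB2. FN1 had a lowest value of 2755, a median of 2808 and a highest of 2993 CPM in SC, against 1827 and 2019 CPM in 786-M1A. All 6 SC libraries were above both 786-M1A libraries, and the log2 fold change was 0.58 ± 0.09 (edgeR adjusted p = 0.00221). ZEB2 had a lowest value of 30.8, a median of 37.5 and a highest of 40.4 CPM in SC, below the 50.2 and 48.3 CPM of 786-M1A, and fell by 0.41 (SE 0.11; edgeR adjusted p = 0.0131). Of 6 tested genes 2 were called, 1 in each direction, where 53.0% of 14769 genes were called and the median log2 fold change of all genes was 0.07. The share called was 19.9% without 786-M1A replicate 1 and 13.1% without replicate 2. On log2(TPM + 1) with limma the median of all genes was −0.23, and there FN1 did not pass (0.31, limma adjusted p = 0.0583). The ZEB2 call was lost without 786-M1A replicate 1 (edgeR adjusted p = 0.0953) or 2 (0.0791).

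Of the other 4 genes in SC, the calls of SNAI1, SNAI2 and ZEB1 depended on which SC libraries were compared with 786-M1A. VIM was lower with either subset. SNAI2 was lower with SC replicates 1 and 2 alone (−0.30, edgeR adjusted p = 0.0198) and higher with SC replicates 3 to 6 alone (0.20, edgeR adjusted p = 0.00712). Over all SC libraries its log2 fold change was 0.09 (edgeR adjusted p = 0.703). SNAI1 (0.74, edgeR adjusted p = 0.000376) and ZEB1 (−0.58, edgeR adjusted p = 0.000402) passed with SC replicates 1 and 2 alone, whereas over all SC libraries they were at 0.42 (0.0979) and −0.24 (0.293). VIM was at −0.26 over all SC libraries (edgeR adjusted p = 0.0903) and passed with either subset, at −0.11 (0.0288) and −0.39 (1.0e-05). It also passed with DESeq2 (−0.30, adjusted p = 0.0285) and limma on log2(TPM + 1) (−0.53, adjusted p = 0.0341), where the median of all genes was −0.23. With edgeR it passed without the filter on low counts (adjusted p = 0.0364) and with the replicate block (−0.10, 0.00136). Of the 8 fits that left out a library, VIM passed in 2, those without SC replicate 1 or 2. Sets were assigned to the CRISPRi libraries alone. At mean gene lengths of 3929 and 3982 bases, 786-M1A lay above the range of both sets, nearest to set A. Its set is not known, so the CRISPRi vector and the library set cannot be told apart here.

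No detected gene passed the test under iMAE-1.1 or iMAE-1.2 against SC of set B, where edgeR called 1.79% and 2.73% of 15254 genes. DESeq2 and limma on TPM called none either, and 1 of the 6 had an unadjusted edgeR p under 0.05 in each guide. FN1 came nearest, with 1888, 1872, 2537 and 2613 CPM in iMAE-1.1 and 2480, 2668, 1764 and 1867 CPM in iMAE-1.2, against 2755, 2773, 2775 and 2964 CPM in SC of set B. Every guide library lay below every SC library of the set, and the log2 differences were −0.35 ± 0.14 (edgeR adjusted p = 0.273) and −0.36 ± 0.14 (0.206). ZEB2 had 26.4, 25.0, 30.5 and 35.5 CPM in iMAE-1.1 and 32.3, 40.3, 24.3 and 25.0 CPM in iMAE-1.2, overlapping the 30.8 to 37.9 CPM of SC in set B (log2 fold changes −0.27 and −0.21, edgeR adjusted p = 0.474 and 0.558). SNAI2 was at −0.13 and −0.17 (0.660 and 0.469). The log2 fold changes of SNAI1, ZEB1 and VIM ran from −0.05 to 0.05 in both guides, and VIM had means of 6356 ± 378 CPM in iMAE-1.1 and 6425 ± 265 CPM in iMAE-1.2, against 6386 ± 483 CPM in SC of set B (SD, n = 4 each).

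The 8 libraries of these guides differed among themselves along a line that the labels do not name. On the first principal component of their deviations from their own group means, computed without the 9 genes and holding 43.4% of the variance of 14312 genes, iMAE-1.1 replicates 1 and 2 and iMAE-1.2 replicates 3 and 4 had positive scores and the other 4 libraries negative ones. FN1 was at 1764 to 1888 CPM in the libraries with positive scores and 2480 to 2668 CPM in those with negative scores. SNAI2 was at 52.2 to 54.0 and 62.7 to 69.9 CPM, ZEB2 at 24.3 to 26.4 and 30.5 to 40.3 CPM, and SNAI1 at 17.8 to 21.8 and 23.6 to 25.4 CPM, in the same order. ZEB1 and VIM overlapped. The component was drawn from the expression of 14312 genes, and the share of all genes that separate by its sign was not computed. The separation therefore cannot be called particular to the genes named here. These libraries were set apart by their expression and not by a label, so no test was made between them, and what the score reflects was not tested.

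**Figure D3:**
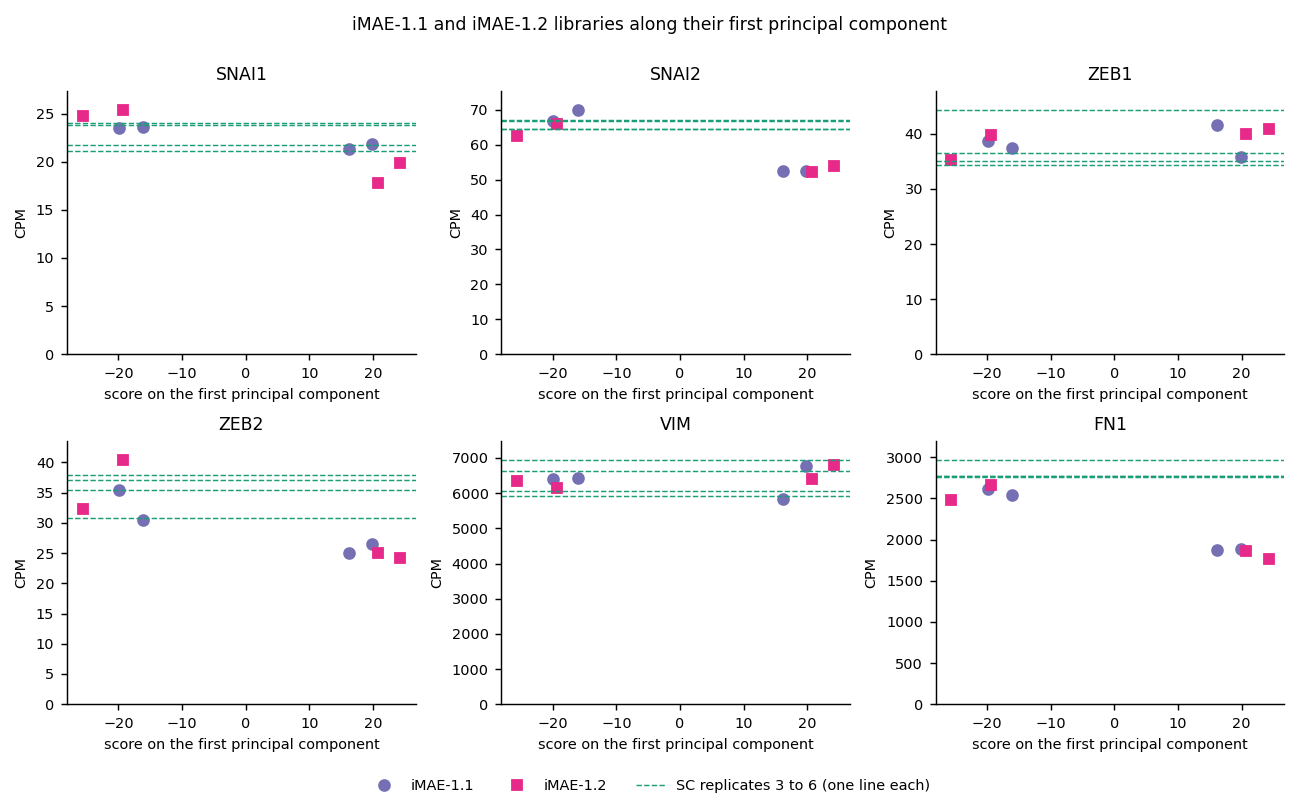
CPM of the 6 detected genes in the iMAE-1.1 (circles) and iMAE-1.2 (squares) libraries against their score on the first principal component, with the SC libraries of set B as dashed lines. FN1 stands at 1764 to 1888 CPM in the libraries with positive scores, and all 8 guide libraries are below the SC lines.

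Under iMAE-126, SNAI2 fell relative to SC of set A. It had 36.2 and 31.3 CPM in iMAE-126, below the 42.2 and 48.6 CPM of SC replicates 1 and 2, and fell by 0.44 on the log2 scale (SE 0.14; edgeR adjusted p = 0.0411). It was the only call among the 6 tested genes, where 16.7% of all genes were called (4.78% without SC replicate 2, and 5.09% and 6.98% without iMAE-126 replicate 1 or 2). The call was lost in 8 of the 16 fits that left out 1 library, with edgeR adjusted p of 0.0501 without SC replicate 1, 0.263 without replicate 2, 0.0538, 0.0555, 0.0534 and 0.0550 without replicates 3 to 6 in order, and 0.0738 and 0.243 without iMAE-126 replicate 1 or 2.

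FN1 had 3791 and 4425 CPM in iMAE-126, both above the 2842 and 2993 CPM of SC replicates 1 and 2, but at 0.49 ± 0.20 in log2 it missed the threshold (edgeR adjusted p = 0.102). DESeq2 called it (0.47, adjusted p = 0.0495), and so did edgeR without the library set term (0.52, adjusted p = 0.0342). SNAI1 had 40.4 and 35.3 CPM in iMAE-126, against 35.0 and 29.2 CPM in SC of set A (0.22, edgeR adjusted p = 0.298). VIM had 6403 and 6725 CPM in iMAE-126, against 7643 and 7461 CPM (−0.21, edgeR adjusted p = 0.126; DESeq2 adjusted p = 0.0496). ZEB1 had 24.2 and 23.2 CPM, against 25.9 and 28.1 CPM (−0.20, edgeR adjusted p = 0.256), and ZEB2 had 44.2 and 39.3 CPM, against 38.4 and 40.4 CPM (0.07, edgeR adjusted p = 0.842). Without the library set term SNAI1 (0.54, edgeR adjusted p = 0.0409) and ZEB1 (−0.54, edgeR adjusted p = 0.0277) passed.

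The FN1 levels lay on opposite sides of SC under the guides, and this difference was tested after the values had been seen. The effect of iMAE-126 minus the mean effect of the other guides, each against SC of its own set, was 0.84 ± 0.23 on the log2 scale (edgeR adjusted p = 0.0281), where 11.9% of all genes were called. It was lost without iMAE-126 replicate 1 (edgeR adjusted p = 0.0521) or 2 (0.118), without SC replicate 1 (0.0920) or 2 (0.0948) and without the filter on low counts (0.0597). No other detected gene passed this contrast, with edgeR adjusted p of 0.231 (VIM) to 0.427 (ZEB2). Without the library set term SNAI1 (0.75, edgeR adjusted p = 0.00215), SNAI2 (−0.83, 0.00238), ZEB1 (−0.72, 0.00205) and ZEB2 (0.47, 0.0322) passed it. The iMAE-126 libraries lie in set A and those of the other guides in set B.

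Ratios within a library need no scaling between libraries, and in both factor families they set 786-O and library set A apart from the rest. The SNAI2 to SNAI1 ratio of TPM was 2.88 and 2.61 in OS-LM1 and 2.06 and 2.61 in 786-M1A, against 1.05 and 1.29 in 786-O. It was 0.721 and 0.715 in iMAE-126 and 0.973 and 1.34 in SC of set A, whereas it was 1.94 to 2.38 under iMAE-1.1 or iMAE-1.2 and 2.18 to 2.55 in SC of set B. The ZEB1 to ZEB2 ratio was 1.25 and 1.15 in OS-LM1 and 1.02 and 1.12 in 786-M1A, against 0.762 and 0.793 in 786-O. In iMAE-126 it was 0.686 and 0.728, below the 0.856 and 0.905 of SC in set A. ZEB2 thus exceeded ZEB1 per length in 786-O and in every library of set A, and ZEB1 exceeded ZEB2 in all other libraries. The VIM to FN1 ratio was highest in OS-LM1 replicate 2 at 24.4 and lowest in iMAE-126, at 6.73 and 6.07. These ratios were formed after the levels were known and are given without a test.

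**Figure D4:**
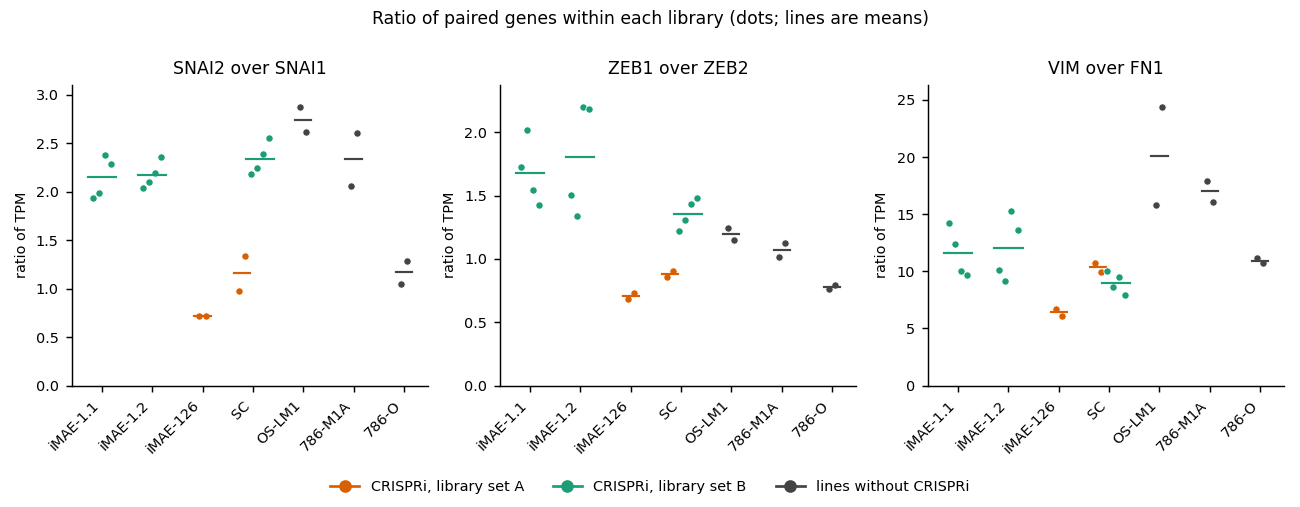
Ratio of TPM within each library (dots) for SNAI2 over SNAI1, ZEB1 over ZEB2 and VIM over FN1, with means as lines and the CRISPRi libraries coloured by library set. The SNAI2 over SNAI1 ratio lies at or below 1.34 in 786-O and set A and at 1.94 or more elsewhere.

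The listed epithelial targets of SNAI and ZEB factors were more often lower than higher in 786-M1A against 786-O, while the mesenchymal list was mixed. Of 16 tested of 18 listed epithelial targets, 7 were lower and 1 higher in 786-M1A, where 31.0% of all genes were called, and the median was −0.60 in log2, against −0.02 over all genes. LSR, of tricellular junctions, averaged 1.59 CPM in 786-M1A and 47.2 CPM in 786-O (−4.90 ± 0.20, edgeR adjusted p = 2.65e-06). The polarity genes CRB3 (−2.05, edgeR adjusted p = 0.000190) and LLGL2 (−0.97, 0.00105) fell as well, and EPCAM, an adhesion molecule, was the gene that rose (4.12 TPM in 786-M1A and 0.785 TPM in 786-O; edgeR adjusted p = 0.000708). EPCAM is named because it was the only rise, a choice made after its values were seen. CDH1 averaged 1.11 CPM in 786-M1A and 1.78 CPM in 786-O (−0.68, edgeR adjusted p = 0.0696), which passed with these lines alone (0.0488) and without OS-LM1 replicate 1 (0.0388) or 2 (0.0259). Of 14 tested of 18 mesenchymal genes other than VIM and FN1, 6 rose and 3 fell (median 0.55), with the matrix protein TNC higher (2.65 ± 0.17, edgeR adjusted p = 1.93e-05) and COL1A1 lower (−1.24, 0.000318). Each library left out in turn gave 5 to 9 lower epithelial targets and 3 to 8 higher mesenchymal genes.

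In OS-LM1 10 of the 16 tested epithelial targets were higher than in 786-M1A and 4 lower, where 68.7% of all genes were called (5625 higher, 5607 lower), and the median was 1.52, against 0.04 over all genes. Each library left out in turn gave 10 to 12 higher and 3 to 5 lower. CDH1 averaged 9.63 CPM in OS-LM1 and 1.11 CPM in 786-M1A (3.04 ± 0.24, edgeR adjusted p = 1.5e-05). The plaque protein gene JUP averaged 119 CPM in OS-LM1, against 0.535 CPM in 786-M1A (7.71 ± 0.17, edgeR adjusted p = 4.68e-08). The desmosome gene DSP (14.2 CPM in OS-LM1, against 0.0452 CPM in 786-M1A; edgeR adjusted p = 4.84e-06) and the claudin gene CLDN7 (5.75 against 0.0444 CPM; 1.19e-05) also rose, with too few counts in 786-M1A for a fold to be given, and MAL2 fell (−2.34, edgeR adjusted p = 6.08e-06). Mesenchymal genes were 7 higher and 3 lower of 14. TAGLN (4.82) and ACTA2 (2.17), both of the contractile apparatus, and COL1A1 (2.18) were higher, and FSTL1 (−3.08) and CDH2 (−1.15) lower. Against 786-O, in contrast, OS-LM1 had 7 of the 16 epithelial targets higher and 5 lower, with a median of 0.02. Of the 14 mesenchymal genes 8 were higher and 1 lower than in 786-O, with a median of 1.02. That comparison called 63.6% of all genes (4965 higher, 5440 lower), with a median of −0.015.

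**Figure D5:**
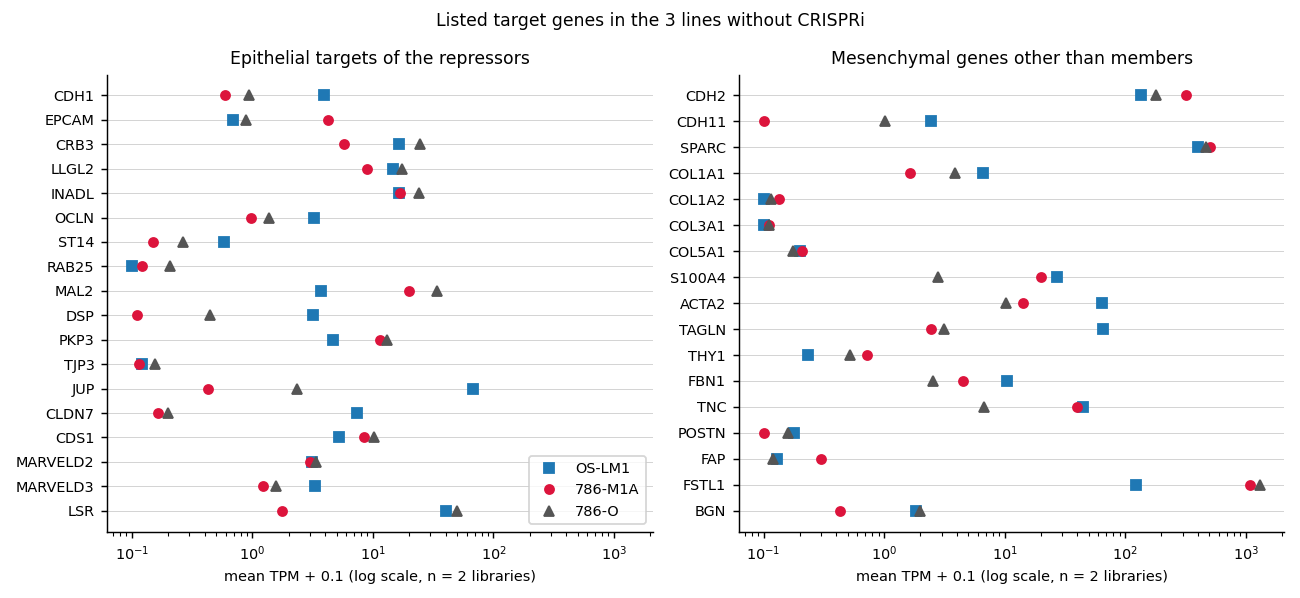
Mean TPM plus 0.1 (log axis, 2 libraries per line) of the listed epithelial targets (left) and of 17 of the mesenchymal genes (right) in OS-LM1, 786-M1A and 786-O. JUP, DSP and CLDN7 stand to the right in OS-LM1, and LSR stands to the left in 786-M1A.

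SC cells had 8 of 13 tested epithelial targets higher and 2 lower than 786-M1A (median 0.60), with LSR (1.91 ± 0.19, edgeR adjusted p = 0.000730) among them. Of 12 mesenchymal genes 3 were higher and 6 lower, with CDH2 (−1.31, edgeR adjusted p = 0.00121) among these. In this comparison 53.0% of all genes were called, with a median of 0.07. Without 786-M1A replicate 1 or 2 in turn, and each SC library likewise, the higher epithelial targets numbered 2 to 8. Under iMAE-1.1 no gene of either list was called by edgeR, DESeq2 or limma, with 1 of 13 and 4 of 12 at an unadjusted edgeR p under 0.05. Of the 13 epithelial targets under iMAE-1.2, again none was called by any of these tools and 1 had an unadjusted edgeR p under 0.05, and of the mesenchymal genes TNC (−0.30, edgeR adjusted p = 0.0108) and COL1A1 (−0.69, 0.0361) fell. Both were lost without some single libraries, TNC without SC replicate 6 (edgeR adjusted p = 0.0504) and COL1A1 without SC replicates 3 to 6 in turn or iMAE-1.2 replicate 3 or 4 (0.0592 to 0.115). Of all genes 1.79% were called under iMAE-1.1 and 2.73% under iMAE-1.2. Under iMAE-126 TNC (51.7 CPM in iMAE-126 and 92.5 CPM in SC of set A, −0.85, edgeR adjusted p = 1.71e-05) and CDH2 (−0.69, 0.000577) fell. Of the 12 mesenchymal genes 3 were lower and 0 higher there, and the median over the list was −0.20. Of all genes 16.7% were called under iMAE-126 (963 higher, 1587 lower). The calls of TNC and CDH2 held without each library in turn. Of the 13 epithelial targets, INADL and JUP rose in iMAE-126 and none fell. Both calls were lost without SC replicate 1 or 2 or iMAE-126 replicate 1 or 2 (edgeR adjusted p = 0.0708 to 0.160 for INADL and 0.0998 to 0.145 for JUP), and limma on TPM called 0 of the list.

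Genes that act with the factors were also counted. Of 12 genes of the TGF-beta pathway, the best known inducer of EMT, 3 were called in 786-M1A versus 786-O (1 higher, 2 lower), 8 in OS-LM1 versus 786-M1A (2 higher, 6 lower) and 3 in iMAE-126 versus SC (all lower). Of all genes 31.0%, 68.7% and 16.7% were called in these comparisons. With a library left out, 786-M1A versus 786-O gave 1 to 4 higher and 0 to 2 lower. The signal carrier SMAD3 averaged 977 CPM in OS-LM1 and 129 CPM in 786-M1A (2.84, edgeR adjusted p = 4.49e-07), and the ligand TGFB2 averaged 125.8 CPM in iMAE-126 and 192.5 CPM in SC of set A (−0.62, edgeR adjusted p = 0.00164). Of 20 other EMT factors and bHLH partners, 17 were tested in the lines and 10 were called in 786-M1A versus 786-O, 5 in each direction, beside the 31.0% of all genes. A library left out gave 3 to 6 higher and 3 to 7 lower. Among them were ETS1 (1.13, edgeR adjusted p = 0.00215) and SOX9 (1.52, 4.0e-05), both higher, and LEF1 (0.0976 CPM in 786-M1A, against 9.80 CPM in 786-O; edgeR adjusted p = 3.97e-06), lower. ETS1 fell in iMAE-126 (−0.72, edgeR adjusted p = 0.000454). The E-protein gene TCF4, whose product binds E-boxes, averaged 0.0751 CPM in OS-LM1, against 57.2 CPM in 786-M1A (edgeR adjusted p = 4.68e-08). Of 16 corepressors and turnover enzymes of SNAI1, 2 were called in 786-M1A versus 786-O, where 31.0% of all genes were. These were SIN3A and LOXL2, named after their values were seen, and both calls were lost without any single library of the 2 lines (edgeR adjusted p up to 0.0847 and 0.158). In OS-LM1 versus 786-M1A 11 were called (2 higher, 9 lower), where 68.7% of all genes were, among them GSK3B (−1.51, edgeR adjusted p = 0.000206), the kinase that marks SNAI1 for decay.

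Among factors known to hold the epithelial state, 7 of 9 stayed under 1 TPM in the mean of every group, and OVOL2 had no count in any library. GRHL1 averaged 0.65 to 2.55 TPM. ELF3 was the most abundant, with mean levels of 53.9 TPM in OS-LM1, 10.5 TPM in 786-M1A and 113 TPM in 786-O, and its log2 fold change in 786-M1A over 786-O was −3.36 (edgeR adjusted p = 8.67e-07). The keratins of simple epithelia lay beside VIM in every library, with KRT8 at 494 to 839 TPM, KRT18 at 234 to 460 TPM and KRT19 at 41.8 to 651 TPM. KRT19 averaged 222 CPM in 786-M1A and 27.0 CPM in 786-O (3.04, edgeR adjusted p = 2.21e-06), so this keratin and VIM were both higher in 786-M1A. Of 14 fibronectin receptors and matrix partners, 4 rose and 3 fell in 786-M1A versus 786-O, beside the 31.0% of all genes called, and 3 to 7 rose and 2 to 5 fell with a library left out. Higher were the crosslinking enzyme TGM2 (2.65, edgeR adjusted p = 6.53e-06) and the latent TGF-beta binding protein LTBP1 (4.55, 2.33e-06). In iMAE-126, 4 of the 14 fell and none rose, where 16.7% of all genes were called (963 higher, 1587 lower). With a library left out 1 to 5 fell. Of the 4, named after their values were seen, PLAUR held without each library in turn (highest edgeR adjusted p = 0.0289). SDC4 was lost without iMAE-126 replicate 1 (0.0637) and TGM2 without SC replicate 1 or iMAE-126 replicate 1 (edgeR adjusted p up to 0.0991). The last was the integrin gene ITGAV (−0.55, edgeR adjusted p = 0.00392), a call lost without SC replicate 2 (0.0778) or iMAE-126 replicate 1 (0.0534).

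The genes whose 7 group means ran closest to each detected gene, by root-mean-square difference of centred log2(CPM + 0.5) among 14935 genes, were MYOZ3 (0.06) and LOC100270746 for SNAI1, FAM177A1 (0.10) and METTL1 for SNAI2, CBFB (0.05) and EXOSC2 for ZEB1, KIAA1109 (0.05) and BRD7 for ZEB2, ZNF275 (0.04) and SEPW1 for VIM, and ZNF358 (0.13) and LOC100130238 for FN1. None of the 9 genes was among another's 2 nearest. The group means of MYOZ3 (0.980 to 2.22 CPM) and LOC100270746 (0.432 to 1.27 CPM) lie near the added 0.5 CPM, which flattens their profiles. The means of 7 groups are few points, and 5 of the groups are 786-M1A cells.

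Of 8 renal lineage markers, 7 or 8 had counts in every group, with summed levels of 238 to 688 TPM. CA9, at 0 in iMAE-1.1, averaged at most 0.135 TPM outside OS-LM1 and 31.1 TPM in OS-LM1. NDUFA4L2 averaged at most 0.415 TPM outside OS-LM1 and 136 TPM in OS-LM1. Fibroblast markers summed to 0.2 to 3.77 TPM and endothelial ones to 0.36 to 1.61 TPM. Leukocyte markers summed to 28.2 to 98.3 TPM, while CD3E was at 0 in every group. Library totals ran from 9062605 to 52706490 expected counts. ZEB1-AS1, the antisense neighbour of ZEB1, was at 2.96 to 6.60 CPM and ZEB2-AS1 at no more than 0.204 CPM.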

How the data were processed

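RNA-seq gene tables of 22 libraries in 7 groups were used, grouped by title. The authors made the expected counts and the TPM values with RSEM and Bowtie2 on hg19, per the submitters' processing notes, from a strand-specific poly(A) preparation with 15 PCR cycles, per the labels' protocols. As deposited, 27.24% to 31.19% of the expected counts were not whole, and they were rounded for the tests. TPM was used as deposited, and the deposited effective length equals the gene length in every row.

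Genes were tested with edgeR 4.0.16 in R 4.3.3 (quasi-likelihood, TMM, filterByExpr with a minimum count of 10) and Benjamini-Hochberg adjustment over all genes, called at an adjusted p under 0.05. The SE is the log2 fold change over the square root of F. The 3 lines, SC with 786-M1A, and the 16 CRISPRi libraries were fitted separately, the last with a term for the library set, which was found from the data. DESeq2 1.42.0, limma 3.58.1 on log2(TPM + 1) or log2(TPM + 0.1), other filters and scalings, subsets and left-out libraries were alternatives. Tables and figures used Python 3.11.15 with pandas 2.3.3, numpy 2.4.6 and matplotlib 3.10.9. The scripts were tested on simulated data.

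The members and the 8 gene lists were chosen with earlier results of these data known. All members are named, and of each list up to 3 called genes per direction with the largest change among those averaging at least 5 CPM in the higher group, and CDH1. Some listed genes are counted with their list but not reported here by name. Library totals of 9062605 to 52706490 expected counts set the precision of low genes.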

Additional observations from a re-analysis of the deposited data

Results flagged for a closer look

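PRRX1 had reads in 1 of the SC libraries. Replicate 1 stood at 0.1245 CPM, from 3 counts, and the other 5 SC libraries at 0, so its gap to the nearest library was 1.000 of the range of the group. With the other libraries of the group at 0, any library with a count gives this value, and 3 counts equal the limit of detection used here.

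The effects of the guides on FN1 were compared after their values were seen. The effect under iMAE-126 minus the mean of the effects under iMAE-1.1 and iMAE-1.2 was 0.8403 in log2 (SE 0.23, edgeR adjusted p = 0.0281), with FN1 above SC in 2 of 2 iMAE-126 libraries and below SC in 8 of 8 libraries of the other guides. With each library left out in turn the value ran from 0.72 to 0.95 and was called in 12 of 16 fits. The calls lost were those without SC replicate 1 (edgeR adjusted p = 0.0920) or 2 (0.0948) and without iMAE-126 replicate 1 (0.0521) or 2 (0.118). The call was also lost with the replicate block (0.82, 0.197) and without the filter on low counts (0.0597). The part of the library set in this difference was not tested.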

How the results depend on the processing

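Of 786 values of single genes under other settings, 417 with a library left out and 312 under the rest kept their side of the threshold. A change of sign was counted as a reversal only where either fit called the gene. Some values called in neither fit changed sign, such as VIM under iMAE-1.1, at −0.04 to 0.03 with libraries left out. Without a library 8 became and 19 ceased to be called, and under the other settings 24 became and 4 ceased to be called and 2 reversed. Both reversals were SNAI2 in SC versus 786-M1A, at −0.29 with the replicate block and −0.30 with SC replicates 1 and 2 alone; the cause was not tested. The number of genes called in 786-M1A versus 786-O was 8733 with these groups fitted alone. DESeq2 called 481 genes under iMAE-1.1 and 655 under iMAE-1.2, and without the library set term 69 and 110 were called. On TPM in place of CPM, the log2 level of SNAI2 in OS-LM1 over 786-O was 0.93 and that of ZEB2 in 786-M1A over iMAE-1.1 was 1.04. The median of all genes on log2(TPM + 1) was −0.23 in SC versus 786-M1A, −0.16 in OS-LM1 versus 786-M1A and −0.23 in OS-LM1 versus 786-O.

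Replicate numbers did not pair the libraries: deviations of same-numbered libraries correlated at −0.083 to 0.047 among the lines, −0.017 and 0.058 between SC and 786-M1A, and −0.297 to 0.040 among the CRISPRi groups. With the replicate block 6 genes were called under iMAE-1.1, 10 under iMAE-1.2 and 1388 under iMAE-126, and SNAI2 under iMAE-126 and the FN1 difference between guides were not (edgeR adjusted p = 0.147 and 0.197).

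With libraries left out in turn, the genes called numbered 2259 to 8763 in 786-M1A versus 786-O, 9088 to 11957 in OS-LM1 versus 786-M1A, 7976 to 11421 in OS-LM1 versus 786-O, 1999 to 9085 in SC versus 786-M1A, 135 to 328 under iMAE-1.1, 201 to 467 under iMAE-1.2 and 728 to 2733 under iMAE-126. Where this left a group with 1 library, that library was assumed to vary like the other groups.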
